A study of Mus musculus and Homo sapiens with 11 samples.

Results

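The glutathione and antioxidant enzymes described here are 51 genes, chosen by name from the 24062 genes of the deposited mouse table: the cytosolic and mitochondrial glutathione transferases (Gst), the glutathione peroxidases (Gpx), the peroxiredoxins (Prdx), the superoxide dismutases (Sod) and 13 single genes. The single genes are Nqo1, Gclc, Gclm, Gsr, Gss, Txn1, Txnrd1, Srxn1, Hmox1, Akr1b8, Cat, Nfe2l2 and Keap1. Names alone chose them, so their values in these libraries were not used in the choice, although earlier results of the table were known when it was made. Of the 51, 41 had a mean normalised read count of at least 10 over the 6 libraries and were tested.

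The study sequenced polyadenylated RNA of MMTV-ErbB2, a mouse breast cancer cell line whose name stands for ErbB2, the HER2 receptor tyrosine kinase, under the mouse mammary tumour virus promoter. One group was the parental line (3 libraries) and the other its brain metastatic derivative BrM 2a (3 libraries), called BrM below. Both groups share the ErbB2 background and neither had a treatment or time label. The labels do not say whether the derivative is a clone or a pool, do not give its passage, and name DMEM or RPMI media and 2 library kits without assigning them to libraries, so medium, kit and derivative cannot be told apart as sources of a difference. Separate cultures for the 3 libraries of a group are not named anywhere, and p-values therefore measure only a spread that may be technical. The series' 5 libraries of the human line HCC1954 were not analysed here.

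Glutathione is the abundant thiol tripeptide of the cell. It is made in a pair of steps by glutamate-cysteine ligase (Gclc with its modifier Gclm) and glutathione synthetase (Gss), is spent by peroxidases and transferases, and is returned from its oxidised form by glutathione reductase (Gsr) at the cost of NADPH. Peroxiredoxins, reduced by thioredoxin, form a parallel route for peroxides, and superoxide dismutases feed both by turning superoxide into hydrogen peroxide. The transcription factor NRF2 (Nfe2l2), which the adaptor KEAP1 sends for degradation until oxidants or electrophiles block it, drives many of these genes through the antioxidant response element in their control regions, and NRF2 activity is a known feature of many carcinomas.

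The libraries held 39304974, 46683735 and 40140819 reads assigned to genes in parental libraries 1, 2 and 3, and 29877087, 38512988 and 39106969 in BrM libraries 1, 2 and 3, numbered as the table's columns are. BrM library 1 stood apart from the other BrM libraries: at least 2-fold differences separated it from BrM library 2 for 26.1% of tested genes and from BrM library 3 for 26.4%, against 1.59% between BrM libraries 2 and 3 and 7.06% to 12.2% between parental libraries. The summed level of 8 epithelial markers went from 104630.1 to 114974 in the parental libraries and from 166812 to 189268 in BrM. Krt8, Krt18, Epcam and Cdh1 made up most of these sums, Cdh1 was lower in BrM than in every parental library, and Krt7 was at 0 in the parental line and at 4.88 or less in BrM. The 8 fibroblast markers summed to 4644 to 16102 in the parental line and 220.0 to 1109.6 in BrM, with Lum at 0 in all libraries and Dcn at 0 in BrM. Of 6 tested, Postn, Pdgfrb, Dcn and Col1a2 fell, Postn and Pdgfrb making up most of the parental sum. Pdgfrb, Dcn and Col1a2 passed the filter on low values through the parental libraries alone and so had to differ, which limits what this count can say. Col1a1 and Pdgfra did not pass, with BrM library 1 at 437 and 555 and within the parental range for both. The part of these markers in the results below was not tested. The 6 endothelial markers summed to 3.73 to 25.6 over all libraries, and the 8 brain markers to 2007 to 2755 in the parental line and 2229.5 to 2418 in BrM. The brain markers moved in opposite ways: the astrocyte marker Gfap was at 20.4, 20.6 and 29.3 in the parental line and 138, 99.5 and 79.2 in BrM, Mbp at 949, 1254 and 1257 and 2109, 2055 and 2089.9, and the glutamate transporter Slc1a2 at 1750.4, 1158 and 665 and 80.6, 17.2 and 22.4, while Aqp4 was at 1.02 or less in all libraries. In bulk RNA, fewer cells of a type and less RNA per cell cannot be told apart.

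The comparison of BrM with the parental line asks which genes differ in the brain metastatic derivative. Most of the large differences were decreases: the secreted enzymes Gpx3 and Sod3, the quinone reductase Nqo1 and the transferases Gstk1 and Gsta3 were 71.6- to 150.5-fold lower in BrM, whereas the 4 genes that make and recycle glutathione did not pass the test. Of the 41 tested members, 3 rose, 14 fell and 24 did not pass (limma, adjusted p under 0.05 over all 13821 genes tested). Fold changes are on the scale of log2(value + 1), which understates those of genes with few reads. The counts are 7.32% of members higher against 12.2% of all tested genes, and 34.1% lower against 15.8%. The limma counts given below for single families, and for genes with a match to the NRF2 element, stand beside the same 12.2% and 15.8%. The median log2 fold change of the tested members was -0.31 beside -0.05 over all tested genes. By library, the median member stood 0.21 above the parental mean on the log2 scale in BrM library 1 and at -0.47 and -0.50 in BrM libraries 2 and 3, with the parental libraries between -0.14 and 0.10. Groups did not overlap for 6 members that were higher in BrM and 16 that were lower, 14.6% and 39.0% of those tested, beside 22.3% and 25.7% of all tested genes. Nqo1 and Gstk1 passed the filter on low values through the parental libraries alone and so had to differ, which limits what these counts can say. Without BrM library 1, 7 members passed as higher and 20 as lower, 17.1% and 48.8% beside 21.1% and 26.1% of all tested genes. All 17 members that passed with 6 libraries also passed in that fit, whose BrM group is the pair of libraries that differed least.

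**Figure D1:**
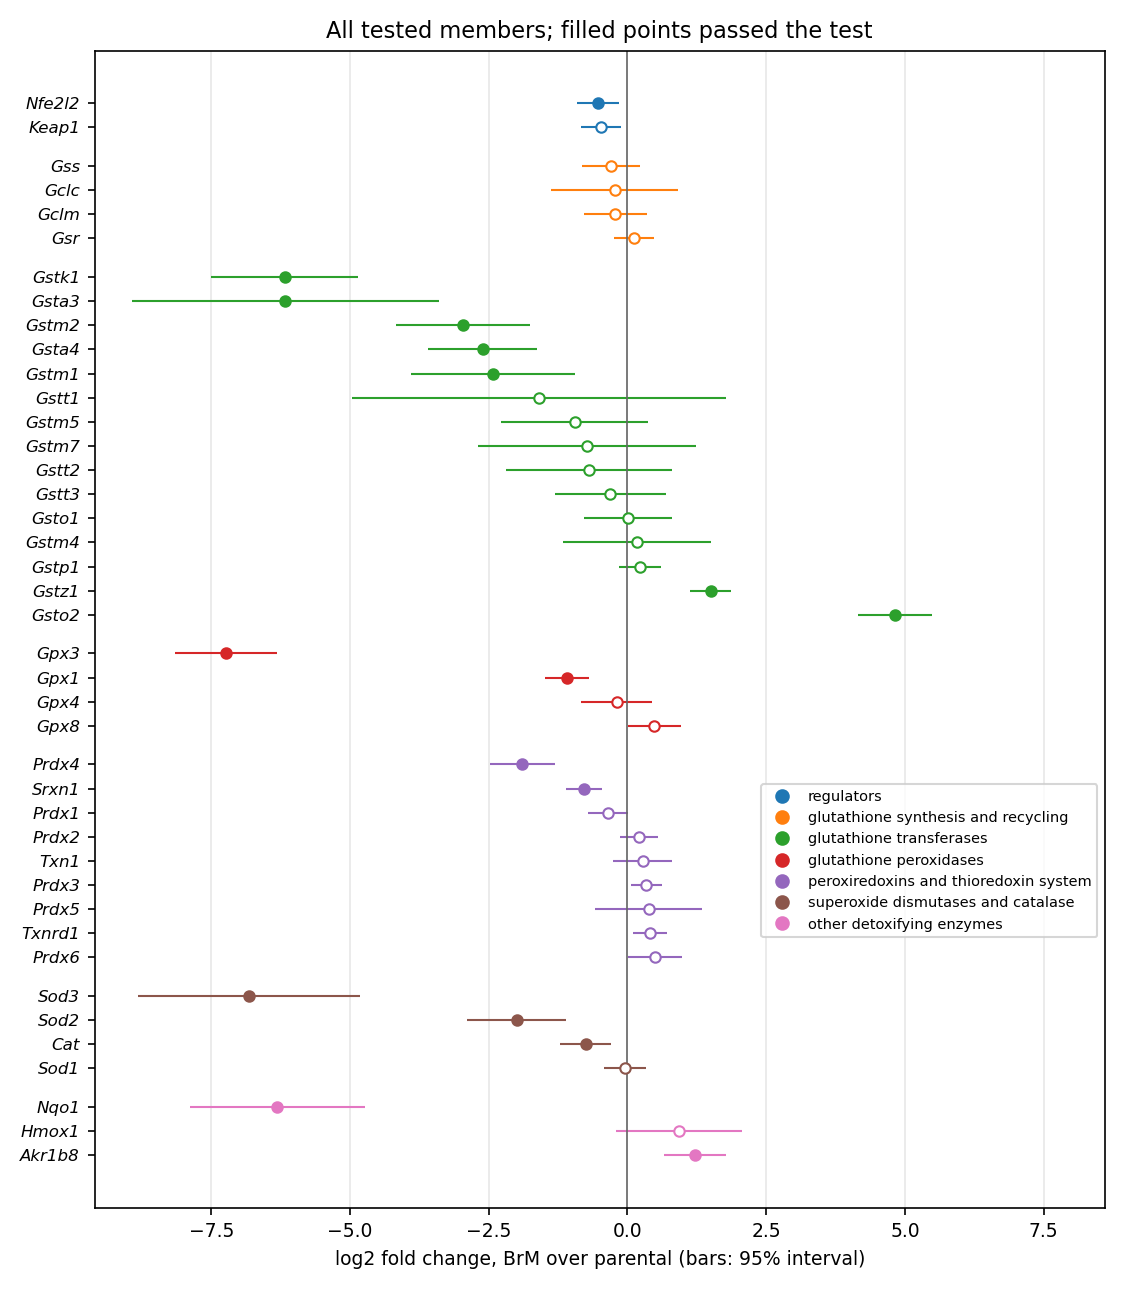
Log2 fold change of each of the 41 tested members (BrM over parental, horizontal axis), with 95% intervals from limma, grouped by role; filled points passed the test at an adjusted p under 0.05 and open points did not. The 4 genes of glutathione synthesis and recycling lie between -0.29 and 0.12, while Gpx3, Sod3, Nqo1, Gstk1 and Gsta3 lie at or below -6.16 and Gsto2 stands at 4.82.

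Of the 2 regulators, Nfe2l2 fell slightly and Keap1 did not pass. Nfe2l2 (chromosome 2, 75675513 to 75704641; positions throughout are GRCm38 gene spans from GENCODE M21), which encodes NRF2, had normalised read counts of 6549, 4714 and 5764 in the parental libraries and 4264, 3861 and 3605 in BrM. The groups did not overlap, and Nfe2l2 fell 1.44-fold (log2 fold change -0.53, SE 0.16, adjusted p = 0.0488). That call was lost in 10 of 20 other analyses; it was lost without parental library 1 or 3, or BrM library 2 or 3 (adjusted p 0.123 to 0.156). Keap1 (chromosome 9, 21229730 to 21239361), the adaptor that marks NRF2 for degradation, had 3954, 4491 and 3313 in the parental line and 2616, 2879 and 2903 in BrM. Its groups did not overlap either, but it did not pass (log2 fold change -0.48, SE 0.15, adjusted p = 0.0552); it passed as lower in DESeq2 (0.0212), without parental library 3 (0.0398) and with array weights (0.00214). RNA levels of these genes do not measure NRF2 protein, which is set largely by degradation.

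To set the differences beside the element NRF2 binds, the 250 bases before each RefSeq start were searched for its core, TGACNNNGC, on both strands. Windows were given for 44 of the 51 genes, 57 windows in all, and 8 genes had 1 match each, or 14.0% of their windows beside 10.2% of all 32851 windows of that length. Of those 8 genes, 0 rose, 2 fell (Nfe2l2 and Gsta3) and 6 did not pass (Gclm, Prdx1, Txnrd1, Sod1, Gstm5 and Gstm7). Gsta4 and Sod3, which fell, and Gclc, Gsr, Hmox1, Prdx6 and Gstt2, which did not pass, had no window and were not searched. A match describes these letters and shows no binding, and elements farther from the start lie outside the window. The windows below (RefSeq, GRCm38.p6, 5′ to 3′ along the gene, matches in capitals) are those of 5 genes with a match, the 2 that fell and 3 well-known NRF2 targets that did not pass. The windows of Gpx3, Nqo1 and Gsto2, among the genes with the largest changes, held no match. They are Nfe2l2 at chr2:75704664-75704913 (minus strand), Gsta3 at chr1:21240335-21240584 (plus strand), Gclm at chr3:122245307-122245556 (plus strand), Prdx1 at chr4:116685349-116685598 (plus strand) and the Txnrd1 window that holds a match at chr10:82858956-82859205 (plus strand).
Nfe2l2: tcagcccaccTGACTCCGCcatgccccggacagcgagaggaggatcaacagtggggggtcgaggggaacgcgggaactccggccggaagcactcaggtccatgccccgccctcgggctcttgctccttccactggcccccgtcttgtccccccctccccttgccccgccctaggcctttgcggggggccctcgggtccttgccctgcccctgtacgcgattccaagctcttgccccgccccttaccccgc
Gsta3: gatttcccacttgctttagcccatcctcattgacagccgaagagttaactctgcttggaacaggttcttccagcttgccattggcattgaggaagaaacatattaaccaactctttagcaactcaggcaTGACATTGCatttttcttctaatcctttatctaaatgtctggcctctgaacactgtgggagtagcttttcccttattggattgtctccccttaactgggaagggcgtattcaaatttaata
Gclm: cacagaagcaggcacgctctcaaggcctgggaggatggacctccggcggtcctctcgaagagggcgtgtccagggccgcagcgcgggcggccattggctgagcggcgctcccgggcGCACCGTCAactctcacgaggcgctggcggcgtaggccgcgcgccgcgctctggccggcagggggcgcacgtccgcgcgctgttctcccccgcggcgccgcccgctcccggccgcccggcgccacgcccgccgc
Prdx1: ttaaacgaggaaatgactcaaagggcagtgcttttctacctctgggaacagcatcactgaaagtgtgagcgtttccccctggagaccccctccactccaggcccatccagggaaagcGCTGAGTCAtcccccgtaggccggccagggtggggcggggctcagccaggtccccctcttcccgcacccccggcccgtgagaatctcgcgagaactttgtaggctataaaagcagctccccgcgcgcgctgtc
Txnrd1: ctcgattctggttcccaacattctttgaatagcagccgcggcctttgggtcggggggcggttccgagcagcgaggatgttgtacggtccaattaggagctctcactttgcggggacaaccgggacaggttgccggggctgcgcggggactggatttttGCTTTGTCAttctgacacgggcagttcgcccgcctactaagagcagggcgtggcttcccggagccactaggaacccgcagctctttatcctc

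With all 6 libraries, no gene of glutathione synthesis or recycling passed the test, 0 higher and 0 lower of 4 in limma, and the count was also 0 at an unadjusted p under 0.05, in edgeR and in DESeq2. Gclc (chromosome 9, 77754535 to 77794485), the catalytic subunit of the rate-limiting ligase, had 1834, 2120.1 and 2367 in the parental libraries and 793, 2659 and 2691 in BrM. BrM library 1 was the lowest of the 6 and the other BrM libraries the highest, so the groups overlapped and the BrM-to-parental ratio had a 95% interval of 0.385 to 1.88 (adjusted p = 0.752); without BrM library 1 the log2 fold change turned from -0.23 to 0.35 (adjusted p = 0.0707). Gclm, the modifier subunit, had 1556, 2141 and 2465 against 1346, 1979.9 and 1948 (interval of the ratio 0.579 to 1.27, adjusted p = 0.527). Gss, which adds glycine to complete the tripeptide, had 1216, 1208 and 1055 against 1279, 834 and 793 (interval 0.568 to 1.18, adjusted p = 0.366); it passed as lower without BrM library 1 (log2 fold change -0.51, adjusted p = 0.0185) and with array weights (0.00290). Gsr, the NADPH-dependent reductase, had 4255, 5731 and 5475 against 5920.3, 5462 and 5295 (interval 0.847 to 1.39, adjusted p = 0.590). All 4 overlapped between groups. The intervals of Gclm, Gss and Gsr leave out 2-fold differences in either direction, while that of Gclc includes a 2-fold decrease.

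The glutathione transferases, which join glutathione to electrophiles, were the largest family and the most mixed. Of 21 in the table, 15 were tested: 2 rose, 5 fell and 8 did not pass, beside 12.2% higher and 15.8% lower of all tested genes. Gsta4 (chromosome 9, 78182774 to 78209349), the alpha-class enzyme known for clearing the lipid peroxidation product 4-hydroxynonenal, had 28198, 19664 and 23704 in the parental libraries and 7557, 2915 and 2625 in BrM. It fell 6.10-fold (log2 fold change -2.61, SE 0.41, adjusted p = 0.00537), and all BrM libraries lay below all parental ones. Per kilobase of annotated exon its level went from 18843 ± 3372 to 3449 ± 2186 (SD, n = 3). On that scale Gsta4 stood far above every other transferase in the parental line, where Gsto1 was next at 3167 ± 54.4. In BrM it was level with Gsto1, at 3475 ± 1823, within their spread.

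Gsta3 (chromosome 1, 21240589 to 21265661), an alpha-class enzyme that also acts in steroid isomerisation, had 807, 477 and 180.3 in the parental line and 33.0, 1.91 and 0.931 in BrM, where library 1 alone was above 2. It fell 71.6-fold (SE 1.16 on the log2 scale, adjusted p = 0.0103), a fold that moved to 174 without BrM library 1, 108 without parental library 3 and 41.4 without BrM library 3. Gstk1 (chromosome 6, 42245935 to 42250447), the kappa-class enzyme of mitochondria and peroxisomes, was at 151, 117 and 156 against 0, 0.956 and 2.79, or 455 reads in the parental group and 4 in BrM. Gstk1 was thus close to absent from all BrM libraries, and it fell 72.3-fold (SE 0.55, adjusted p = 0.000707). The mu-class genes Gstm1 and Gstm2, which lie 25802 bases apart on chromosome 3, fell together. Gstm2 had 2955, 3198 and 2323 in the parental line and 831, 217 and 254 in BrM (7.80-fold lower, adjusted p = 0.00736, and 11.9-fold without BrM library 1). Gstm1 had 2121, 2083 and 1332 and 934, 206 and 198 (5.35-fold lower, adjusted p = 0.0290, and 8.90-fold without BrM library 1). The Gstm1 call was lost in each fit that left out 1 library, except the fit without BrM library 1 (adjusted p 0.0608 to 0.101) and in edgeR (adjusted p = 0.0594). Of Gstm1's 50-base stretches, 18.9% also occur in transcripts of other genes, so part of its reads may not have been assigned.

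Against these decreases, a pair of transferases rose. Gsto2 (chromosome 19, 47865534 to 47886324), an omega-class enzyme with dehydroascorbate reductase activity, had 33.6, 23.9 and 20.8 in the parental libraries and 654, 827 and 775 in BrM. All BrM libraries lay far above all parental ones (28.2-fold higher, log2 fold change 4.82, SE 0.28, adjusted p = 0.000166). Its paralog Gsto1 lies 744 bases away and did not pass, at 6418, 6290.4 and 6509 against 11285, 5073 and 4732 (adjusted p = 0.978). Per kilobase Gsto2 was still about an order below Gsto1 in BrM, at 320.2 ± 37.8. Gstz1 (chromosome 12, 87147165 to 87164723), the zeta-class maleylacetoacetate isomerase of tyrosine breakdown, had 476, 576 and 529 against 1616, 1433 and 1417 (2.82-fold higher, SE 0.15, adjusted p = 0.00115). It overlaps Pomt2 on the other strand, and no source used here says whether reads were counted by strand. Gstp1, the pi-class enzyme often abundant in tumours, did not pass, at 2201, 1793 and 1713 against 2502, 2189 and 2008 (interval of the ratio 0.905 to 1.53, adjusted p = 0.313); 33.7% of its 50-base stretches are shared, with Gstp2 among the genes that share them.

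The other theta and mu transferases tested did not pass, and in BrM library 1 stood above libraries 2 and 3. Gstt1, a theta-class enzyme that acts on small halogenated compounds, had 1764, 1013 and 289.9 in the parental line and 2484, 83.2 and 90.3 in BrM. BrM library 1 was thus above, and BrM libraries 2 and 3 below, all parental libraries, and the parental libraries themselves were spread. Gstt2 had 678, 525 and 308 against 771, 173 and 192, and Gstt3 1993, 1546 and 1059 against 2199.7, 881 and 888. In the mu class, Gstm4 had 399.9, 511 and 367 against 1204, 299 and 302, Gstm5 725, 652 and 509.9 against 792, 226 and 184 and Gstm7 77.3, 61.8 and 36.8 against 123, 21.04 and 14.0. All 10 alpha, mu and theta transferases tested were at least 2-fold higher in BrM library 1 than in both other BrM libraries, a grouping made after the values were seen. So were Gsto1, Hmox1, Nqo1, Prdx5 and Sod3, which makes 15 members, or 36.6%, beside 14.7% of all tested genes. Gclc was the only member at least 2-fold lower in BrM library 1 than in both others (2.44% of members beside 8.58% of tested genes). Without BrM library 1, Gstt1 (adjusted p = 0.0134), Gstt2 (0.0188), Gstm5 (0.00196), Gstm7 (0.0209) and Gsto1 (0.0158) passed as lower. The part of other cell types in this library was not tested. Among macrophage markers, Cd68 was at 2669.6 in BrM library 1 and 209 and 211 in BrM libraries 2 and 3. Within BrM, Aif1 was also highest in library 1, at 42.7 beside 1.91 and 5.59, with 55.0, 41.2 and 50.0 in the parental line. The leukocyte marker Ptprc was at 4.88, 1.91 and 4.66 in BrM, Cx3cr1 at 12.2, 9.56 and 11.2, and Tyrobp and Itgam at 6.10 or less. Csf1r, the marker of this list that passed as higher, was at 2.04, 1.65 and 18.9 in the parental line and 319, 254 and 230.0 in BrM, so it was high in all BrM libraries. Csf1r passed the filter on low values through the BrM libraries alone and so had to differ. Over the 7 such markers in the table the sums were 466 to 3054 in BrM and 277 to 666 in the parental line.

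**Figure D2:**
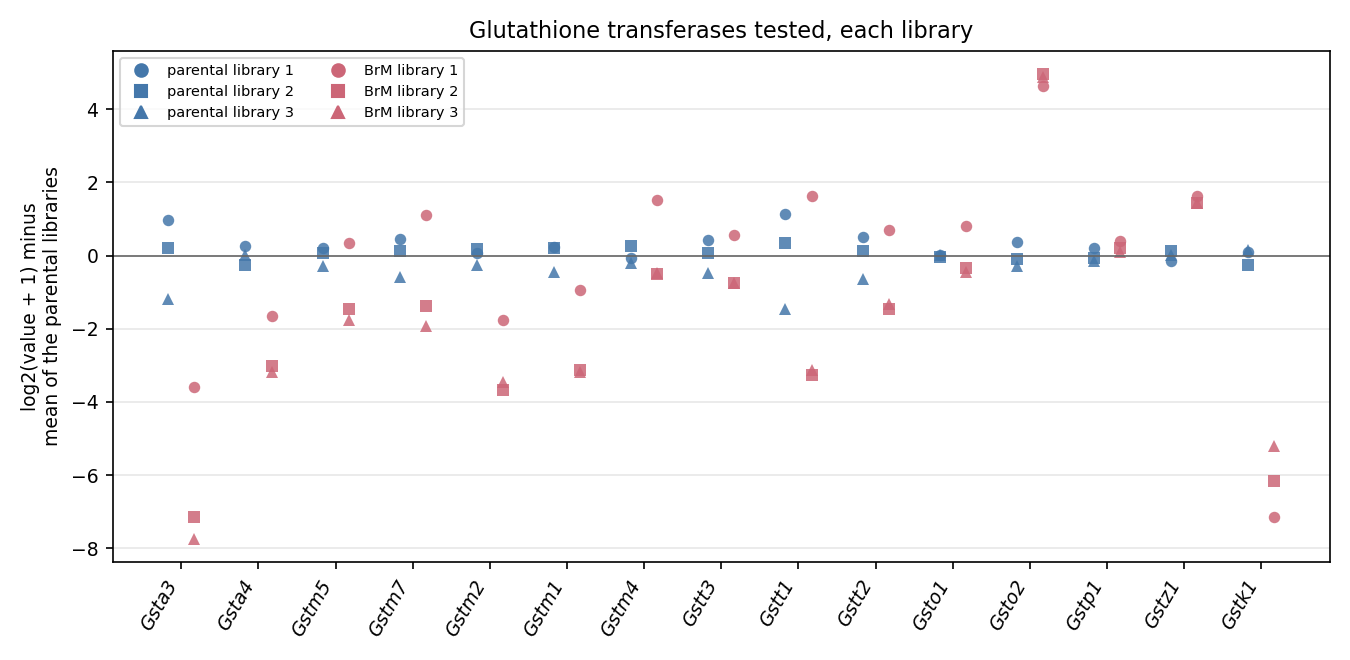
Log2(value + 1) of the 15 tested glutathione transferases in each library, less the mean of the 3 parental libraries (vertical axis), with parental libraries in blue and BrM libraries in red and the symbol giving the library number. BrM library 1 (red circle) lies above the other BrM libraries for all alpha, mu and theta genes, while for Gsto2, Gstz1 and Gstp1 the 3 BrM libraries lie close together.

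Among the glutathione peroxidases, which reduce peroxides with glutathione, the secreted and the cytosolic forms fell and the others did not pass (0 higher and 2 lower of 4 tested in limma; 1 and 2 at an unadjusted p under 0.05, 0 and 2 in edgeR and in DESeq2). Gpx3 (chromosome 11, 54902453 to 54910377), the secreted selenoenzyme of plasma and extracellular fluid, had 5723, 2916 and 2205 in the parental libraries and 24.4, 17.2 and 22.4 in BrM. It was near absent from all BrM libraries (150.5-fold lower, log2 fold change -7.23, SE 0.38, adjusted p = 0.000134). That was the largest decrease among the members with all 6 libraries, but not without BrM library 1, where Gpx3 was 161-fold, Gsta3 174-fold and Sod3 228-fold lower. Gsta3 then rested on BrM values of 1.91 and 0.931, so the order of these folds depends on the 1 added to each value. Gpx1 (chromosome 9, 108338903 to 108340343), the main cytosolic selenoperoxidase, had 12244, 14052 and 11017 against 6925, 5545 and 5131 and fell 2.13-fold (SE 0.16, adjusted p = 0.00454). Gpx4, which reduces lipid hydroperoxides in membranes and guards against ferroptosis, had 24916, 15840.1 and 15292 against 21206, 14769.9 and 12887, with overlapping groups (interval of the ratio 0.561 to 1.36, adjusted p = 0.627). Per kilobase, Gpx4 stood at 10837 ± 3135 and Gpx1 at 8631 ± 1059 in the parental line, against 9448 ± 2530.0 and 4071 ± 652 in BrM (SD, n = 3), so their levels lay within the spread of each other in the parental line and apart in BrM. Its pseudogene Gpx4-ps2 shares 34.7% of the 50-base stretches of Gpx4. Gpx8, a peroxidase of the endoplasmic reticulum, had 943, 1403 and 1039.6 against 1340.3, 1737 and 1622 and did not pass (adjusted p = 0.119; 0.0422 without BrM library 1).

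Most genes of the peroxiredoxin and thioredoxin route did not pass: of 9 tested, 0 were higher and 2 lower in limma (3 and 2 at an unadjusted p under 0.05, 0 and 2 in edgeR, 2 and 2 in DESeq2). The 2 that fell act at different sites. Prdx4 (chromosome X, 155323918 to 155340754), the peroxiredoxin of the endoplasmic reticulum, had 3921, 4644 and 2484 in the parental libraries and 889.9, 1019 and 968 in BrM. The BrM libraries were within a narrow range below all parental ones (3.72-fold lower, log2 fold change -1.90, SE 0.24, adjusted p = 0.00256). Srxn1 (chromosome 2, 152105516 to 152111376), sulfiredoxin, which restores over-oxidised peroxiredoxins, had 2378, 2400.2 and 2408 against 1598, 1305 and 1293. The parental libraries were almost equal to each other, and the gene fell 1.72-fold (SE 0.14, adjusted p = 0.00782). Prdx1, the peroxiredoxin with the highest level per kilobase in both groups, had 24104, 19175 and 18642 against 15257, 17394 and 15669; the groups did not overlap, and it did not pass (log2 fold change -0.35, adjusted p = 0.127). Txnrd1 (chromosome 10, 82833951 to 82897712), the cytosolic thioredoxin reductase, had 8956, 9720.2 and 11100.2 against 13712, 12639 and 13096. It too did not overlap between groups and came just short of the threshold (log2 fold change 0.41, SE 0.13, adjusted p = 0.0548), and passed as higher without parental library 3 (0.0472), without BrM library 1 (0.0455) and in DESeq2 (0.0107). Txn1, thioredoxin itself, had 5941, 7376 and 6717 against 5846, 9911 and 8982, with BrM library 1 at the low end and the groups overlapping (adjusted p = 0.397). Prdx3, the mitochondrial form, had group means of 3259 ± 202 and 4126 ± 240.0 without overlap (SD, n = 3, adjusted p = 0.0718), and Prdx6, a form that also has phospholipase activity, 6137 ± 604 and 8825 ± 2364, also without overlap (adjusted p = 0.119). Prdx2 was at 9887 ± 642 against 11429 ± 1599 and Prdx5 at 6434 ± 1655 against 9098 ± 5318, with BrM library 1 of Prdx5 at 15225 and the others at 6382 and 5686. Without BrM library 1, Txn1 (0.0194) and Prdx3 (0.0223) passed as higher by the same test.

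Of the superoxide dismutases, the extracellular and mitochondrial enzymes fell and the cytosolic one did not pass. Sod3 (chromosome 5, 52363791 to 52371418), the secreted heparin-binding enzyme, had 2936, 2278 and 4116 in the parental libraries and 107, 12.4 and 12.1 in BrM. All BrM libraries were far below the parental ones, with library 1 the highest of them (113-fold lower, log2 fold change -6.82, SE 0.83, adjusted p = 0.00220; 228-fold without BrM library 1). Sod2 (chromosome 17, 13006846 to 13040063), the mitochondrial manganese enzyme, had 11617, 4022 and 6629 against 1457, 1863 and 1798. The parental libraries were wide and still all above BrM (3.99-fold lower, SE 0.37, adjusted p = 0.00997). Sod1, the cytosolic copper and zinc enzyme, had 8969.6, 9401 and 8365 against 10392, 8445 and 7271, with overlapping groups and a ratio between 0.742 and 1.26 (95% interval, adjusted p = 0.848); its small difference changes sign when values are scaled to CPM. Cat, catalase of peroxisomes, which splits hydrogen peroxide, had 3483, 4361 and 3279 against 2722, 1946 and 1962 and fell 1.69-fold (adjusted p = 0.0282). The Cat call was lost in the same 5 fits as that of Gstm1 (adjusted p 0.0515 to 0.100).

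Of the 3 remaining enzymes, often read together as NRF2 targets, Nqo1 fell, Akr1b8 rose and Hmox1 did not pass. Nqo1 (chromosome 8, 107388225 to 107403206), the quinone reductase, had 200.5, 374 and 466 in the parental libraries and 8.54, 2.87 and 0.931 in BrM, which is 1145 reads against 11. It was near absent from BrM (79.1-fold lower, log2 fold change -6.31, SE 0.66, adjusted p = 0.00124; 120.0-fold without BrM library 1). Its level in the parental line was low too, at 223 ± 86.9 per kilobase beside 1401 ± 153 for Txnrd1. Akr1b8 (chromosome 6, 34354119 to 34368463), an aldo-keto reductase of lipid aldehydes, had 1267, 1096 and 1002 against 3649, 2227 and 2191 and rose 2.34-fold (SE 0.23, adjusted p = 0.0108), with the groups apart. Hmox1, haem oxygenase, had 2171, 1068 and 783 against 4025, 1796 and 1739.7. BrM library 1 was the highest of the 6, the groups overlapped, and it did not pass (log2 fold change 0.93, SE 0.47, adjusted p = 0.192).

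**Figure D3:**
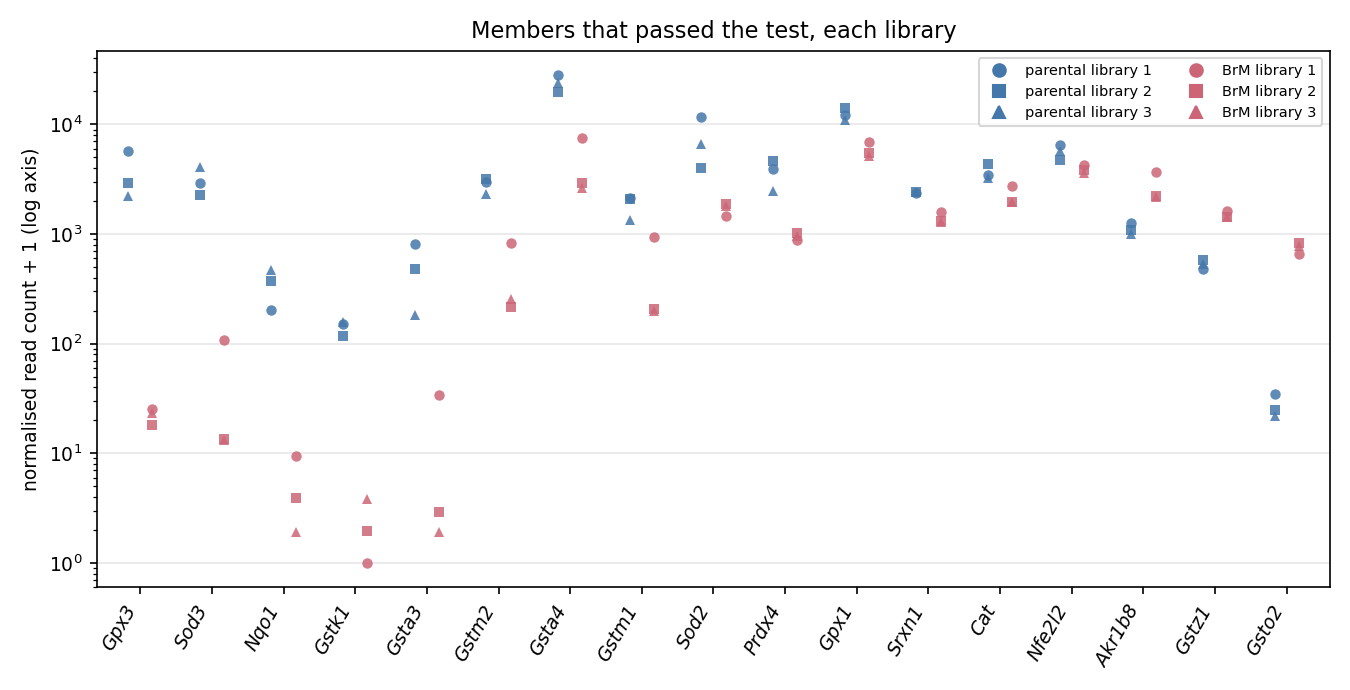
Normalised read count plus 1 (logarithmic vertical axis) in each library for the 17 members that passed the test, ordered by fold change, with parental libraries in blue and BrM libraries in red. Groups are apart for every gene shown; the parental libraries of Gpx3, Sod3 and Nqo1 lie at 200.5 or above and their BrM libraries at 107 or below.

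The chromosome neighbours of the 17 members that passed were read from the same fit. Of the 34 nearest tested genes, 1 on each side of each member, 7 passed in the member's direction and 1 in the other, Gstm1 and Gstm2 each counting as the other's neighbour. Of the 29 that are no members, 6 passed, or 20.7%, beside 28.1% of all tested genes. The nearest genes of Nqo1, Gpx3 and Sod3 did not pass. Nqo1 lies between Nfat5, 8708 bases away (log2 fold change -0.23, adjusted p = 0.262), and Nob1, 9280 bases away (0.26, adjusted p = 0.470). Gpx3 lies 408 bases from Tnip1, which had a log2 fold change of -1.08 and did not pass (adjusted p = 0.0936), and on its other side is Hint1, at 0.00. Sod3 lies 3233 bases from Ccdc149 (-0.60, adjusted p = 0.0927), beyond which Lgi2, 162099 bases from Sod3, fell by 8.41 on the log2 scale (adjusted p = 0.000596). Next to Gsta3, Ogfrl1, 2100763 bases away, also fell (log2 fold change -2.18, adjusted p = 0.0280). Both genes next to Gstz1 rose, Pomt2 by a log2 fold change of 0.97 (adjusted p = 0.00536) and Tmed8 by 0.82 (adjusted p = 0.0302).

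**Figure D4:**
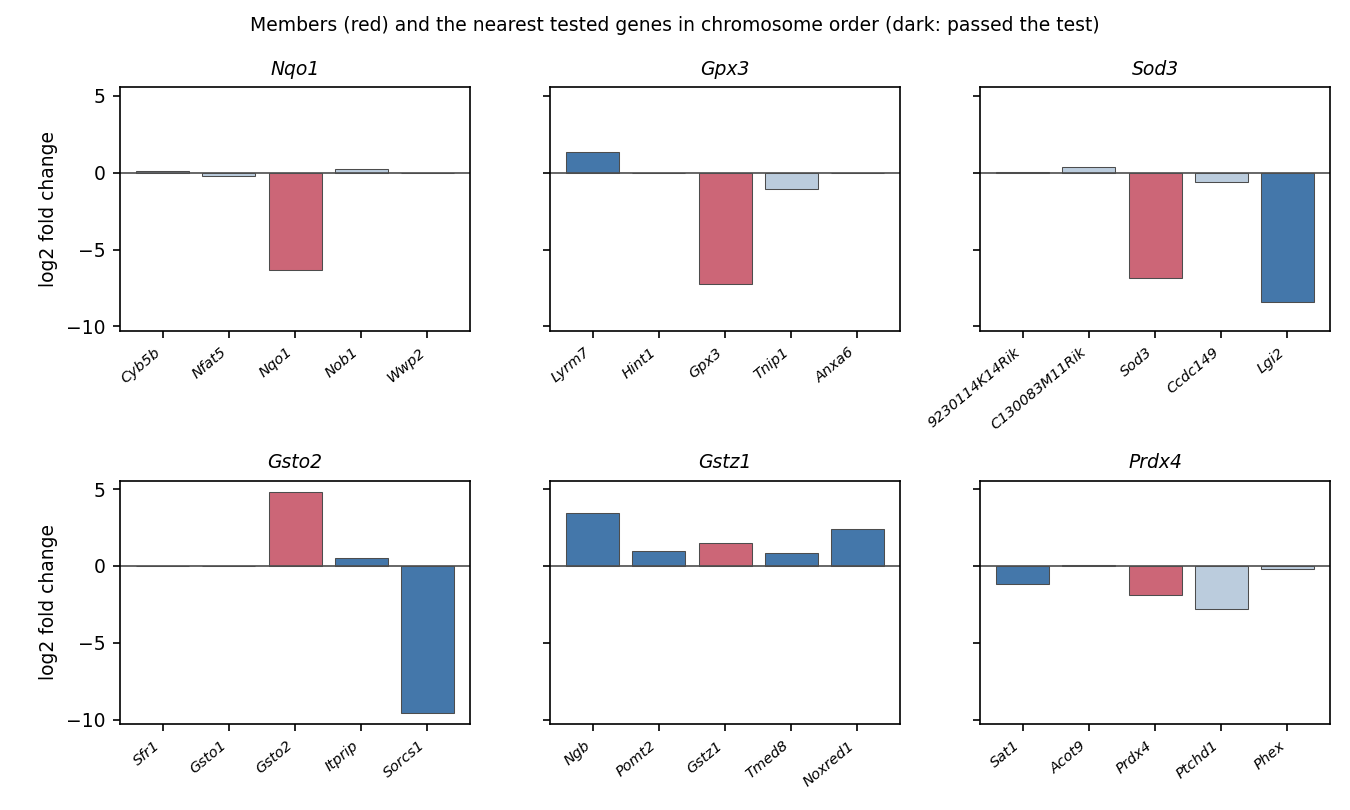
Log2 fold change (BrM over parental) of 6 members, in red, and of the 2 nearest tested genes on either side in chromosome order, dark where they passed the test and pale where they did not. The genes on both sides of Nqo1 lie at -0.23 and 0.26 beside -6.31 for Nqo1, and all 4 genes around Gstz1 are higher in BrM.

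Of the 10 members that were not tested, Gpx5, Gpx6 and Gpx7 had no read in any library, a limit of 3 reads a library for counting error alone. Gsta1 had 2 reads in the parental group and 2 in BrM, Gsta2 1 and 0, and Gstm3 0 and 3. Gstm6 had 11 and 17, Gstp2 7 and 15, Gstt4 4 and 15, and Gpx2, the epithelial peroxidase of gut, 7 and 30. These genes were at the edge of detection in both groups. Transcripts of other genes share 90.5% of the 50-base stretches of Gsta1, 49.8% of Gsta2 and 54.3% of Gstp2, so reads of these near-identical copies may be missing from the counts.

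The other genes of the pathway were read from lists of their own, whose counts stand beside 12.2% higher and 15.8% lower of all tested genes. Akr1c14, Aldh1l1, Anpep and Ggt7 passed the filter on low values through the parental libraries alone and so had to differ, which limits the counts of their lists. Of 9 tested genes of cysteine supply and transsulfuration, 0 rose, 2 fell (22.2%) and 7 did not pass in limma (0 higher and 3 lower at an unadjusted p under 0.05, 0 and 2 in edgeR, 0 and 3 in DESeq2), with a median log2 fold change of -0.53 beside -0.05 for all tested genes. Slc7a11, the cystine importer xCT that feeds glutathione synthesis, had 8978, 3128 and 1532 in the parental libraries and 657, 425 and 672 in BrM. It was 6.11-fold lower (SE 0.61, adjusted p = 0.0225), with the widest values in the parental line; the fold was 3.82 without parental library 1 and 9.24 without parental library 3, and the call was lost without parental library 2 or BrM library 2 or 3 (adjusted p up to 0.0739). Slc1a1, a glutamate transporter that also takes up cysteine, fell 28.2-fold (341 ± 36.3 to 19.3 ± 24.5, adjusted p = 0.00792; 56.6-fold without BrM library 1 and 17.8-fold without BrM library 2). Of 19 NADPH-producing enzymes, 0 rose and 6 fell (31.6%) in limma (1 and 7 at an unadjusted p under 0.05, 0 and 3 in edgeR, 1 and 7 in DESeq2), with a median of -0.19. Aldh1l1, which makes NADPH from formyl-tetrahydrofolate, had 3 reads in BrM against 6176 in the parental group, a parental-to-BrM ratio of 1858 (635 to 9012, exact 95% interval for counting error). Nadk, which makes NADP from NAD, fell 1.88-fold (adjusted p = 0.0189), and Idh2, the mitochondrial NADP-dependent isocitrate dehydrogenase, 1.64-fold (adjusted p = 0.0225). Both calls were lost without parental library 1, that of Nadk also without parental library 3 (up to 0.0702), and that of Idh2 without parental library 2 or BrM library 2 or 3 (up to 0.0848).

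In the wider NRF2 target list, of 29 tested targets that are not members, 2 rose (6.90%), 4 fell (13.8%) and 23 did not pass, shares near those of all tested genes, with a median log2 fold change of -0.16. The decreases were led by a pair of aldo-keto reductases of steroids. Akr1c14 had no read in BrM against 509 in the parental group, or at least 153-fold lower when 3 reads are allowed for the whole BrM group, and Akr1c18 fell 35.1-fold (adjusted p = 0.00369; 61.8-fold without BrM library 1). Ptgr1, which reduces lipid alkenals, rose 1.98-fold (adjusted p = 0.0200), a call lost without parental library 1 or 3 or BrM library 2 or 3 (up to 0.0803). Of 12 partners and regulators of NRF2, 1 rose and 1 fell (median 0.20); Park7, the redox-sensitive chaperone DJ-1, rose 1.68-fold (adjusted p = 0.0120), a call lost without parental library 2 (0.0501). Bach2, a repressor that binds the same element, fell 2.63-fold (adjusted p = 0.0152), a call lost without parental library 2 or BrM library 2 or 3 (up to 0.0639). Some genes stand on more than one of these lists.

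In glutathione breakdown and transfer, 2 of 13 tested genes rose and 3 fell (median log2 fold change -0.17). Anpep, the aminopeptidase that takes apart the peptide left by glutathione cleavage, had 2 reads in BrM against 1081 (a parental-to-BrM ratio of 488, exact 95% interval 135 to 4033), and Oplah, which recycles 5-oxoproline to glutamate, fell 9.84-fold (adjusted p = 0.00142). Among membrane transferases and their relatives, 2 of 10 rose and 1 fell (median -0.42). Ltc4s, which joins glutathione to a leukotriene, rose 48.3-fold (13.7 ± 4.89 to 707 ± 226, adjusted p = 0.000254). Eef1g rose 1.63-fold (adjusted p = 0.0122 in limma), a call lost without BrM library 2 (0.0639). Clic4 fell 1.66-fold (adjusted p = 0.0244 in limma), a call lost without BrM library 2 or any 1 parental library (up to 0.0841). The thioredoxin and glutaredoxin relatives split, 4 higher and 6 lower of 24 (median 0.07): the methionine sulfoxide reductase Msrb3 fell 4.11-fold and Txndc5, a disulfide isomerase, 2.46-fold, while Glrx5, a glutaredoxin of mitochondrial iron-sulfur cluster assembly, rose 2.38-fold (adjusted p 0.000817, 0.00182 and 0.00220). Of 29 selenoprotein and selenium genes listed, 18 were found in the table by the names used and 16 were tested. Among those 16, 1 rose and 4 fell (median -0.34). The deiodinase Dio2 fell 6.09-fold (adjusted p = 0.0168 in limma), a call lost without parental library 2 (0.0652). Selk fell 1.95-fold (adjusted p = 0.0186) and Vimp 2.12-fold (adjusted p = 0.0231). Both calls were lost without parental library 1 or 2 or BrM library 3 (up to 0.0712), that of Selk also without BrM library 2. Among 15 ferroptosis genes, with a median of -0.08, Slc7a11 fell and Por, the cytochrome P450 reductase, rose 1.48-fold (adjusted p = 0.0280), a call lost without parental library 2 or 3 or BrM library 2 or 3 (up to 0.105). Of 2 tested metallothioneins, cysteine-rich metal binders, Mt2 fell 44.9-fold (adjusted p = 0.0173), with 2480.0, 737 and 314 in the parental libraries and 100.1, 8.61 and 5.59 in BrM; the fold went from 26.0 without parental library 1 to 105 without BrM library 1, and the call was lost without parental library 1 or 2 or BrM library 2 or 3 (up to 0.0639).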

How the data were processed

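RNA of the 3 parental and 3 BrM libraries of the MMTV-ErbB2 line had been aligned and counted with tools that include STAR and HTSeq on GRCm38, per the submitters' processing notes. The authors deposited 1 table of normalised counts per gene, used here as a signal in which each library's reads were divided by a size factor; the strand setting is not given in the sources used here. All values were whole multiples of 1 read within 0.01 read, so whole reads could be recovered. Columns were assigned to groups by name and numbered as in the table, since 1 library title of each group has no number.

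The main test was limma 3.58.1 (R 4.3.3) with an intensity trend on log2(value + 1), over genes with a mean of at least 10, two-sided, with Benjamini-Hochberg adjustment over 13821 genes and a threshold of 0.05. edgeR 4.0.16 and DESeq2 1.42.0 were run on the recovered reads as alternatives, beside other pseudocounts, filters, scalings, weights and left-out libraries. Tested on simulated data with 200 changed genes among 13821, limma recovered 58% of 4-fold and 6% of 2-fold changes with 7 false calls. For edgeR the shares were 57% and 5%, and 6 of its calls were false. DESeq2 found more of the changes, 85% and 35%, but 63 of its calls were false. The simulation changed far fewer genes than the 3881 called here. It also drew the libraries of a group alike apart from depth, without the distance of BrM library 1 from the others. Its shares and false calls therefore do not carry over to these data. Passes seen in DESeq2 and not in limma are not counted as calls here. By rule, values in all libraries were given for every member that passed and for Nfe2l2, Keap1, Nqo1, Gclc, Gclm, Gsr, Gss, Hmox1, Srxn1, Txn1, Txnrd1, Cat and the member of highest mean in each family, and up to 3 genes of smallest p were named from each other list; further members were shown per library, and neighbours named, after their values were seen. The members and lists were chosen with earlier results of these data known. The depth was 29877087 to 46683735 reads per library, so counting error is small for all but the genes of few reads. Promoter windows are RefSeq's, shared 50-base stretches were computed on GENCODE M21 transcripts, and exon lengths are the union of each gene's exons.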

Additional observations from a re-analysis of the deposited data

How the results depend on the processing

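Of the 17 members that passed, 14 kept their call in all 20 alternatives run, and Nfe2l2, Cat and Gstm1 lost theirs in 23 of the 340 tests of called members between them; 0 of the 340 changed direction. The main analysis called 3881 genes, and the count went from 2191 to 6519 over fits that leave out 1 library, highest without BrM library 1; it was 8485 with limma array weights, which gave BrM library 1 a weight of 0.0903, and 2275 with BrM libraries 2 and 3 averaged as 1 sample, an alternative chosen after seeing the data. edgeR called 3753 and DESeq2 5075, of which 3675 and 3846 were shared with the main analysis. Members called higher, 3 in the main analysis, numbered 5 with CPM, 5 in DESeq2, 9 with array weights and 3 to 7 with 1 library left out. Members called lower, 14 in the main analysis, numbered 23 with array weights and 11 to 20 with 1 library left out, and the members' median log2 fold change then lay between -0.49 and -0.29. Small differences that changed sign were those of Sod1 (0.036 with CPM, 0.0196 with the averaged libraries, -0.18 to 0.0736 with 1 library left out), Gclc (0.33 with array weights, -0.53 to 0.35), Gstm4 (-0.58, -0.49 to 0.51), Gsto1 (-0.36, -0.39 to 0.24), Prdx5 (-0.00728, -0.065 to 0.65), Gpx4 (-0.40 to 0.0329) and Gsr (-0.0125 to 0.20); the cause was not tested beyond the library or weight named. Same-numbered columns correlated at 0.30, -0.09 and 0.33 in their deviations from the group means, and parental library 2 correlated best with BrM library 1. BrM libraries 2 and 3 were close to each other, so these correlations cannot settle whether libraries are paired by their column numbers. A replicate block on these numbers, chosen after seeing the data, called 4040 genes, with 4 members higher, Hmox1 among them (adjusted p = 0.0121), and 14 lower. Blocks on the numbers of the library titles, and a term for numbered against unnumbered libraries, were not run because columns could not be matched to titles.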
